A study of Mus musculus with 17 samples.

Results

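Interleukin-10 (IL-10) and interleukin-17 (IL-17) family cytokines and their receptor chains were described in cultured peritoneal macrophages. The rows were those whose gene symbol was one of 8 listed names, 8 of the 21683 rows of the table. They comprised 5 cytokine genes (Il10, Il19, Il22, Il17a and Il17f) and 3 receptor chain genes (Il10ra, Il10rb and Il17ra). The names had been picked with the differences between these same groups in view. Their levels and differences are therefore given as a description, with no test.

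The RNA-Seq data were 17 libraries of peritoneal macrophages (PMs) that thioglycollate had drawn into the cavity of C57BL/6 mice. The values were TPM, a measure of transcript abundance that is scaled to the library total and to transcript length. PMs of IKKβF/FLDLR-/- mice were given PBS (F/F PBS, n = 6 libraries) or 100 nM recombinant HIV protein Tat (F/F Tat, n = 6), and PMs of IKKβΔMyeLDLR-/- mice were given 100 nM Tat (ΔMye Tat, n = 5). Mice were 8 weeks old and, per the methods, male. Each received 1 mL of 3% thioglycollate 3 days before collection according to the labels and 4 days before according to the methods, and PMs were left to attach for 4 h before a treatment of 12 h. All 3 groups lacked the LDL receptor and carried IKKβ alleles flanked by loxP sites. In ΔMye mice a heterozygous LysM-Cre knock-in, active in cells of the myeloid lineage, deleted IKKβ, a kinase that activates NF-κB. Other cell types in the dish keep IKKβ in this model. ΔMye PMs given PBS were not analysed here, so differences of genotype under Tat can include some that were there without Tat. The labels do not say whether the libraries came from separate animals, while the study describes them as biological replicates. The p-values measure only the spread between these samples. Bulk RNA was measured, so fewer cells of a type and less RNA per cell cannot be told apart. TPM keep no read numbers, and depth is unknown.

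IL-10 is secreted by activated macrophages and lymphocytes and limits inflammation. It binds a receptor of the ligand-binding chain IL-10RA and the shared chain IL-10RB, which signals through JAK1, TYK2 and STAT3. IL-22 and IL-19 belong to the same family, but IL-22 acts mainly on epithelial cells and IL-19 uses the receptor of IL-20. IL-17A and IL-17F are homologous cytokines that form dimers, signal through IL-17RA and IL-17RC and raise chemokines and colony-stimulating factors in the responding cell. They are known best as products of T helper 17 cells, gamma delta T cells and innate lymphoid cells, in which IL-23 sustains them.

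The 8 genes lie on 5 chromosomes of GRCm38 (GENCODE M21). Il17a (chr1:20730905-20734496, plus strand) and Il17f (chr1:20777146-20790617, minus strand) are neighbours. Il19 (chr1:130932656-130940115, minus strand) and Il10 (chr1:131019845-131024974, plus strand) share the IL-10 cluster of chromosome 1. Il22 (chr10:118204942-118210047, plus strand) lies on chromosome 10. Il17ra (chr6:120463247-120487559, plus strand), Il10ra (chr9:45253837-45269149, minus strand) and Il10rb (chr16:91406164-91425834, plus strand) are on other chromosomes.

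Sequence upstream of the gene start was at hand in RefSeq (GRCm38.p6) for 4 of the 8 genes, Il19, Il22, Il17a and Il17f, and is shown for these. No such sequence was at hand for Il10, Il10ra, Il10rb and Il17ra. The 250 bases before each RefSeq start were searched on both strands for 4 motifs. These were the κB consensus bound by NF-κB, the AP-1 site TGANTCA, the STAT element TTCNNNGAA and TATAAA. Capitals mark the matches in each run, which is written 5′ to 3′ on the strand of the gene. The runs are chr1:20730655-20730904 (plus strand) for Il17a, chr1:20784271-20784520 (minus strand) for Il17f, chr10:118204714-118204819 (plus strand) for Il22 and chr1:130940116-130940365 (minus strand) for Il19. The Il22 run was ended 20 bases after its TATAAA, since transcripts may start further upstream than the RefSeq start from which positions are counted, and the Il17f window lies inside the longer gene of the GENCODE annotation.
Il17a: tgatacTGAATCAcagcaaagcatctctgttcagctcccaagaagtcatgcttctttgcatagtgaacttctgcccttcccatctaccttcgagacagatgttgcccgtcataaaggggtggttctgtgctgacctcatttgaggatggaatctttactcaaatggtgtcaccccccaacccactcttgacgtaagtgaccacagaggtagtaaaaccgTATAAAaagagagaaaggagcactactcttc
Il17f: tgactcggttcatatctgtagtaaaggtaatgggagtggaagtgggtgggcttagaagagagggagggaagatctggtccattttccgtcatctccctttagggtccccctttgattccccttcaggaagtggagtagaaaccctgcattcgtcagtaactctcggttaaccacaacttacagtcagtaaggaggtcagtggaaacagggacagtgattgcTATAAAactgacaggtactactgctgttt
Il22: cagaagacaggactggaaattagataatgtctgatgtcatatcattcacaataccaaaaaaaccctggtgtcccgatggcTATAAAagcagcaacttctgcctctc
Il19: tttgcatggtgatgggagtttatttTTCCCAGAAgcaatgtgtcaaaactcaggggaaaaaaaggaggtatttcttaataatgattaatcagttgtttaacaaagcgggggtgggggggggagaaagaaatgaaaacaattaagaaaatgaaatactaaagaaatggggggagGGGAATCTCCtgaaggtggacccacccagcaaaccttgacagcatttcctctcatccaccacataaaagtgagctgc

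Counted from the RefSeq start, Il17a and Il17f each held TATAAA, at -31 to -26 and at -29 to -24. Il17a also held an AP-1 site, TGAATCA, at -244 to -238. The Il19 window was the one of the 4 with a match to the κB consensus (GGGAATCTCC, -77 to -68), and it also held TTCCCAGAA at -225 to -217. In Il22 the one match was TATAAA at -170 to -165. No 2 matches overlapped. Of the 32851 RefSeq windows of this length, 7.25% held the κB consensus, 6.75% the AP-1 site, 7.02% the STAT element and 12.4% TATAAA. A match describes letters in this window and is no evidence of binding.

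All 5 cytokine genes were at or near 0 TPM in F/F PBS, between 10.8 and 24.9 TPM in F/F Tat except Il17f, whose lowest library was at 6.52 TPM, and at 2.34 TPM or less in every ΔMye Tat library. The 3 receptor chain genes followed other patterns. Il10ra and Il17ra were higher in both Tat groups than in F/F PBS and overlapped between the genotypes, and Il10rb overlapped among all 3 groups.

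Il17a, the gene of IL-17A, had a value of 0 in each of the 6 F/F PBS libraries. In F/F Tat it was at 23.3, 23.7, 18.1, 18.7, 16.4 and 24.9 TPM, and in ΔMye Tat at 0.134, 0.807, 0.404, 0.0765 and 0.875 TPM. No group overlapped another, and the ΔMye Tat libraries spread over a wider relative range than those of F/F Tat. The mean was 20.8 ± 3.51 TPM (SD, n = 6) in F/F Tat and 0.459 ± 0.370 TPM (n = 5) in ΔMye Tat, or 2.20% of the F/F Tat mean. The difference between the genotypes was -5.52 on the log2(TPM + 0.1) scale (standard error 0.34) and -3.93 with a pseudocount of 1, so that Il17a and Il17f change places in the order of size with the pseudocount. No fold change is given against F/F PBS.

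Il17f, the gene of IL-17F, was at 0.149, 0, 0, 0, 0.0780 and 0.0683 TPM in F/F PBS. It was at 12.0, 11.8, 8.77, 9.53, 6.52 and 9.07 TPM in F/F Tat and at 0.200, 0.110, 0.107, 0 and 0 TPM in ΔMye Tat. The ΔMye Tat libraries overlapped those of F/F PBS, and both groups lay below every F/F Tat library. The mean of 9.62 ± 2.06 TPM in F/F Tat compared with 0.0835 ± 0.0849 TPM in ΔMye Tat, 0.867% of it, the smallest share left among the 8 genes. The log2 difference was 6.09 (standard error 0.30) with Tat in F/F PMs and -5.83 (0.32) between the genotypes. These sizes depend on the pseudocount and were 3.32 and -3.27 with a pseudocount of 1. In addition, 8.75% of the 31-base sequences of Il17f also occur in transcripts of other genes.

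Il22, the gene of IL-22, also had a value of 0 in each F/F PBS library. It was at 18.3, 16.9, 17.1, 17.1, 15.5 and 17.7 TPM in F/F Tat and at 0.786, 1.58, 0.982, 1.64 and 0.860 TPM in ΔMye Tat. The groups did not overlap, and Il22 had the smallest spread of the 5 cytokines in F/F Tat (17.1 ± 0.936 TPM). The ΔMye Tat mean of 1.17 ± 0.407 TPM was 6.84% of that level, a log2 difference of -3.82 (standard error 0.17), or -3.08 with a pseudocount of 1. The neighbouring copy Iltifb (chr10:118289629-118295038, minus strand) shares 53.6% of the 31-base sequences of Il22, so the division of reads between both genes is uncertain. Iltifb was listed at 0 in F/F PBS, at 0.721 ± 0.359 TPM in F/F Tat and at 0.109 ± 0.0911 TPM in ΔMye Tat.

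Il19, the gene of IL-19, was at 0.0889, 0, 0, 0, 0.0942 and 0 TPM in F/F PBS. It was at 16.0, 16.3, 15.0, 11.7, 15.5 and 12.7 TPM in F/F Tat and at 1.87, 1.43, 1.73, 2.03 and 1.36 TPM in ΔMye Tat. The 3 groups were ordered without overlap, with ΔMye Tat between the others. The mean was 14.5 ± 1.89 TPM in F/F Tat against 1.68 ± 0.284 TPM in ΔMye Tat, 11.6% of it. The log2 difference was 6.87 (standard error 0.19) with Tat in F/F PMs, 3.91 with a pseudocount of 1, and -3.04 (0.20) between the genotypes, or -2.53 with that pseudocount.

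Il10, the gene of IL-10, was the cytokine of the 5 that was detected in every F/F PBS library, at 0.522, 0.658, 0.939, 0.859, 0.341 and 0.0599 TPM. It was at 13.7, 12.1, 12.6, 10.8, 11.4 and 10.9 TPM in F/F Tat and at 2.16, 1.69, 2.34, 1.73 and 1.58 TPM in ΔMye Tat. Again the groups did not overlap. The mean of 11.9 ± 1.10 TPM in F/F Tat was 21.1-fold that of F/F PBS (0.563 ± 0.329 TPM). In ΔMye Tat the mean was 1.90 ± 0.330 TPM, 16.0% of F/F Tat and 3.37-fold that of F/F PBS. The log2 difference was 4.40 (standard error 0.32) with Tat in F/F PMs and -2.59 (0.33) between the genotypes, or 3.07 and -2.15 with a pseudocount of 1.

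**Figure D1:**
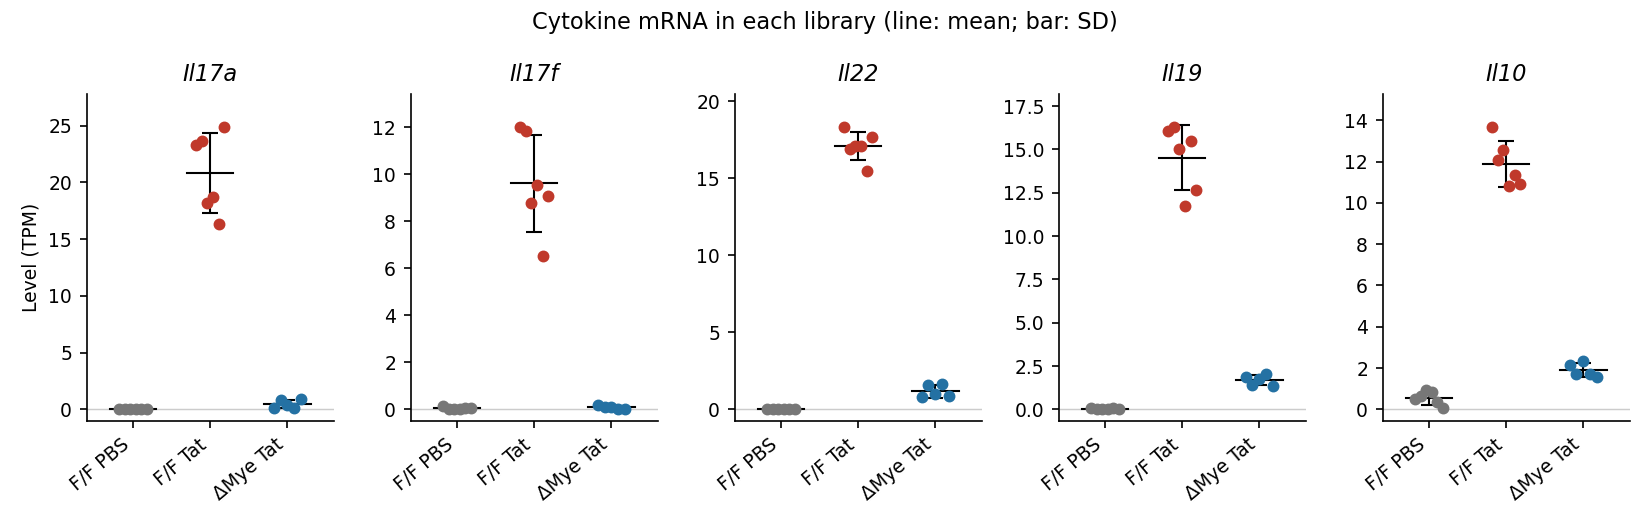
Level of the 5 cytokine genes in TPM (vertical axes, each with its own range) in each library of F/F PBS (grey, n = 6), F/F Tat (red, n = 6) and ΔMye Tat (blue, n = 5); points are libraries, the line is the mean and the bar the SD. Every F/F Tat library lies above every library of the other groups, and the ΔMye Tat libraries of Il17f reach no more than 0.200 TPM while those of Il10 lie at 1.58 to 2.34 TPM.

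The order of levels was read within each group, since TPM are per transcript length. In F/F Tat the order by mean TPM was Il10rb, Il10ra, Il17a, Il22, Il19, Il10, Il17f and Il17ra, and the ranges of neighbours overlapped from Il17a down to Il17f. Il10ra lay above Il17a and Il17f above Il17ra without overlap. Il17a exceeded Il17f in each F/F Tat library, by 1.94 to 2.74 times (median 2.03), exceeded Il22 by 1.06 to 1.41 times, and Il19 exceeded Il10 by 1.08 to 1.36 times. In ΔMye Tat the cytokines came in another order, Il10, Il19, Il22, Il17a and Il17f, again with overlap between neighbours. The ratio of Il19 to Il10 was there 0.864, 0.846, 0.738, 1.18 and 0.863, so that Il19 was below Il10 in all libraries but 1. In F/F PBS the order was Il10rb, Il10ra, Il17ra and Il10, with the other 4 cytokines at a mean below 0.05 TPM.

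Il10ra encodes the chain that gives the receptor its specificity for IL-10. It was at 28.0 to 33.7 TPM in F/F PBS (median 29.4), at 63.3 to 65.8 TPM in F/F Tat (median 64.0) and at 68.4, 60.8, 59.4, 62.3 and 53.8 TPM in ΔMye Tat. The F/F PBS libraries lay below both Tat groups, whose ranges overlapped. The mean of 64.2 ± 0.974 TPM in F/F Tat was 2.14-fold that of F/F PBS (30.0 ± 2.08 TPM), and the ΔMye Tat mean of 60.9 ± 5.26 TPM was 94.8% of F/F Tat. The log2 difference was 1.10 (standard error 0.05) with Tat in F/F PMs and -0.08 (0.05) between the genotypes.

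Il10rb, whose chain is shared with the receptors of IL-22 and other family members, had the highest level of the 8 genes in every group. It was at 185 to 204 TPM in F/F PBS (median 193), at 174 to 188 TPM in F/F Tat (median 179) and at 181, 184, 189, 193 and 182 TPM in ΔMye Tat. All 3 groups overlapped. The log2 difference was -0.11 (standard error 0.03) with Tat and 0.04 (0.03) between the genotypes, and both signs turned with median-ratio scaling, to 0.53 and -0.17. Of its 31-base sequences, 14.9% also occur in transcripts of other genes.

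Il17ra, the common chain of IL-17 receptors, was at 0.745 to 1.48 TPM in F/F PBS (median 1.13), at 3.15 to 5.29 TPM in F/F Tat (median 4.64) and at 7.02, 5.04, 5.14, 4.14 and 3.72 TPM in ΔMye Tat. The F/F PBS libraries lay below both Tat groups, which overlapped. The F/F Tat mean of 4.49 ± 0.748 TPM was 4.03-fold that of F/F PBS (1.11 ± 0.353 TPM), and the ΔMye Tat mean was 5.01 ± 1.27 TPM. The log2 difference was 1.95 (standard error 0.19) with Tat, 1.38 with a pseudocount of 1, and 0.14 (0.20) between the genotypes, which turned to -0.07 with scaling.

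**Figure D2:**
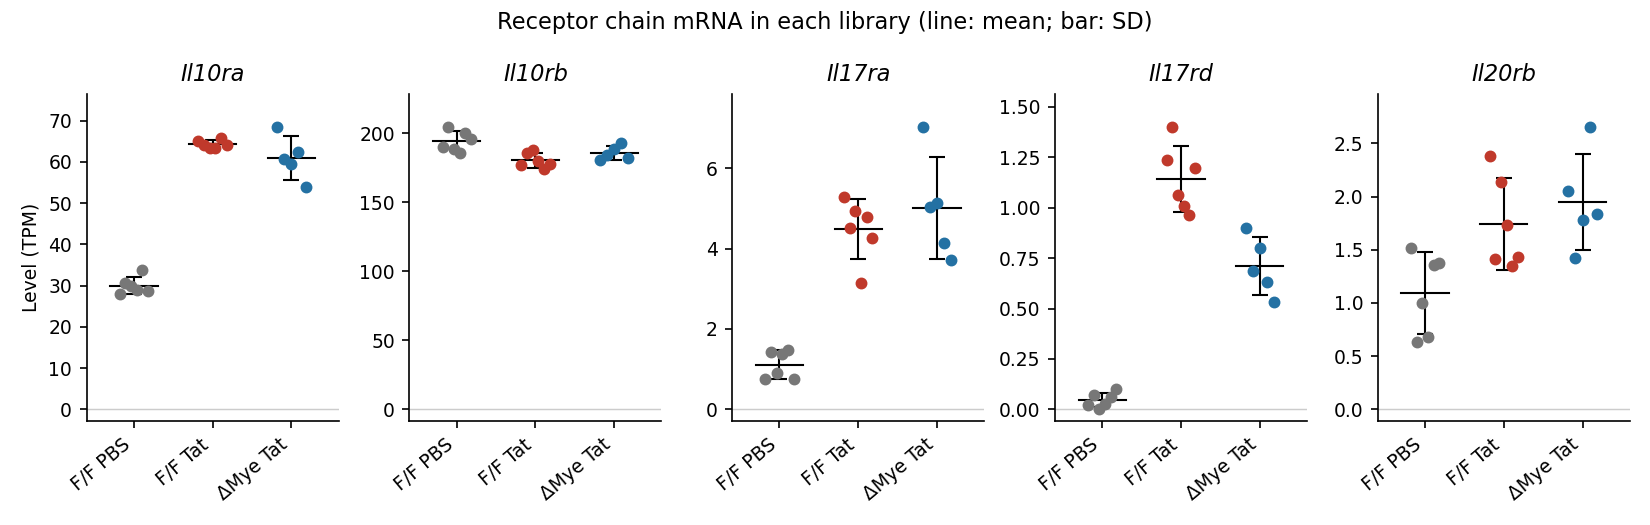
Level in TPM (vertical axes, each with its own range) of the receptor chain genes Il10ra, Il10rb and Il17ra and of Il17rd and Il20rb in each library of F/F PBS (grey, n = 6), F/F Tat (red, n = 6) and ΔMye Tat (blue, n = 5); points are libraries, the line is the mean and the bar the SD. The 2 Tat groups overlap for Il10ra, Il10rb, Il17ra and Il20rb, and for Il17rd all ΔMye Tat libraries lie below the lowest of F/F Tat (0.963 TPM).

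Calls were made across the whole table where the fold change exceeded 3 and the adjusted p was below 0.01 (limma on log2(TPM + 0.1), Benjamini-Hochberg). All 8 genes were among the 10451 tested, which reached 1 TPM in at least 5 libraries. Il17a and Il17f reached 1 TPM in F/F Tat libraries alone, and Il22 in the 6 F/F Tat and 2 ΔMye Tat libraries, so these genes entered the test through the groups in which they were high. In F/F Tat against F/F PBS, 6 of the 8 (all but Il10ra and Il10rb) met the rule for higher, as did 5.21% of all tested genes, and 19.4% met it for lower. Il17ra was under the fold threshold with a pseudocount of 1, and Il10ra was over it with median-ratio scaling (1.73). In ΔMye Tat against F/F Tat the 5 cytokines met it for lower, as did 0.316% of all tested genes, with 0.440% for higher. By log2 difference Il17f, Il17a, Il22, Il19 and Il10 stood at places 2, 3, 4, 6 and 12 from the lowest in this comparison. In ΔMye Tat against F/F PBS, Il10, Il19, Il22, Il17a and Il17ra met the rule for higher, against 4.38% of all tested genes, with 11.1% for lower. Since the genes had been chosen on these comparisons, nothing is read from the counts. The 3 comparisons share libraries.

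The last comparison rests on low levels. Its log2 differences were 1.80 for Il10, 3.83 for Il19 and 2.09 for Il17ra, and with a pseudocount of 1 they were 0.91, 1.38 and 1.50. Il22 and Il17a, at 0 in F/F PBS, had fitted values of 1.10 and 0.51 with that pseudocount. All 5 genes were then under the fold threshold. The median log2 difference of the tested genes was -0.65 with Tat in F/F PMs, 0.22 between the genotypes and -0.43 in the last comparison. Median-ratio scaling, which sets the libraries to a common median ratio, moved these medians to -0.03, 0.01 and -0.01. With it the differences between the genotypes were -2.81 for Il10, -3.25 for Il19, -4.03 for Il22, -5.75 for Il17a and -6.09 for Il17f, each larger in size than before scaling.

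The other ligands of both families were at low level. Il24 was listed at 0 in all libraries, and Il20, Il17b, Il17d and Il25 had means below 0.05 TPM in each group. Il17c, an epithelial member of the IL-17 family, was at 0.566 ± 0.343, 0.285 ± 0.302 and 0.116 ± 0.194 TPM in F/F PBS, F/F Tat and ΔMye Tat and was not tested. In F/F Tat, 3 of the 6 listed IL-10 family ligands and 2 of the 6 listed IL-17 family ligands thus had a mean of 1 TPM or more. Iltifb, with a mean of 0.721 TPM there, reached 1.08 TPM in its highest library.

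Among the remaining receptor chains, those that pair with the 3 above differed in level. Il17rc, the partner of IL-17RA for IL-17A and IL-17F, was at 0.215 ± 0.0865, 0.374 ± 0.214 and 0.240 ± 0.140 TPM in F/F PBS, F/F Tat and ΔMye Tat. Il22ra1, the specific chain for IL-22, and Il22ra2, a soluble IL-22 binding protein, had means below 0.05 TPM in each group. Il20ra was listed at 0 throughout, and Il17rb and Il17re had means below 0.2 TPM. Il20rb, a chain of the receptor for IL-19, was at 1.09 ± 0.381, 1.74 ± 0.429 and 1.95 ± 0.453 TPM. It was 0.66 higher on the log2 scale with Tat (adjusted p = 0.00779, limma), with overlapping groups. Il17rd, an alternative partner of IL-17RA, was at 0.0465 ± 0.0363, 1.14 ± 0.163 and 0.710 ± 0.144 TPM in the same order of groups, without overlap. It passed the filter on low values through F/F Tat alone, where 5 of the 6 libraries reached 1 TPM, and no test is given for it.

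Genes that act downstream of IL-10 were taken from a list of 14, all tested. With Tat in F/F PMs 6 were called higher, as were 5.21% of all tested genes. The median log2 difference was 1.35 against -0.65 over all tested genes. Il1rn, the interleukin-1 receptor antagonist, rose from 121 ± 7.71 to 3981 ± 77.3 TPM (log2 difference 5.04, adjusted p = 2.05e-26, limma). Socs3 and Socs1, feedback inhibitors of cytokine receptors, rose by 3.68 and 3.24, and Zfp36, which destabilises cytokine mRNAs, rose by 1.94. Between the genotypes 1 of the 14 was higher and 6 were lower at the adjusted p alone, where 38.8% of all tested genes were higher and 8.87% lower, and the list median was -0.16 against 0.22. Il1rn fell by 1.08 to 1879 ± 48.0 TPM (adjusted p = 1.70e-14, limma), Ddit4 by 1.18 and Stat3, the transcription factor of the IL-10 receptor, by 0.59. Socs1 was the one that was higher (0.41), and Socs3 differed by -0.02 (adjusted p = 0.578). With scaling 11 of the 14 were lower, as were 18.8% of all tested genes. Socs3 was among the 11 (-0.24, adjusted p = 1.81e-05, limma).

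Regulators known to induce Il10 in macrophages were 11, of which 10 were tested. Of these 1 was called higher with Tat, beside 5.21% of all tested genes. It was Nfkb1, the gene of an NF-κB subunit, at 67.9 ± 6.22 TPM in F/F PBS and 220 ± 8.79 TPM in F/F Tat (log2 difference 1.70, adjusted p = 2.65e-14, limma). The list median was 0.69. Between the genotypes 3 were higher and 1 lower at the adjusted p alone, with a median of 0.10, a share near that of all tested genes (38.8% higher and 8.87% lower). With scaling 1 was higher and 4 lower, beside 16.4% and 18.8% of all tested genes. The lower one, Irf4, fell by 0.57 (adjusted p = 0.000166, limma), and the largest of the higher ones was Mapkapk2, a kinase that acts after p38, with 0.40 (adjusted p = 4.83e-08).

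Components of IL-17 signalling numbered 11, all tested, and 2 were called higher with Tat, beside 5.21% of all tested genes. These were Nfkbiz (2.42) and Arid5a (2.31), an NF-κB cofactor and an RNA-binding protein that carry the IL-17 response. The list median was 0.69. Between the genotypes 4 of the 11 were higher and 2 lower at the adjusted p alone, again beside 38.8% and 8.87% of all tested genes. With scaling 3 were higher and 4 lower, beside 16.4% and 18.8% of all tested genes. Among the higher ones were Cebpd, the gene of a transcription factor, by 1.07 (adjusted p = 2.51e-11, limma), Traf5 by 0.68 and Map3k7 by 0.49. Both called genes were among the lower ones, Arid5a by -0.55 (adjusted p = 0.00561, limma) and Nfkbiz by -0.42 (adjusted p = 0.000129). Of 7 inhibitors of IL-17 signalling 3 were called higher with Tat, beside 5.21% of all tested genes. These were Tnfaip3 (3.02), Zc3h12a (2.70) and Tnip1 (1.88), and the list median was 1.17. Between the genotypes 2 of the 7 were higher and 3 lower at the adjusted p alone, beside 38.8% and 8.87% of all tested genes. With scaling 4 were lower, as were 18.8% of all tested genes. Tnfaip3, the deubiquitinase A20, fell by 0.52 (adjusted p = 5.90e-07, limma).

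Genes that IL-17 is known to raise in responding cells were 12, of which 11 were tested. With Tat 7 were called higher, beside 5.21% of all tested genes, and the list median was 5.17. The largest differences were those of Il6 (8.47), Csf3 (7.78), Csf2 (7.45) and Cxcl2 (5.75). Csf2, among the 7, was at 0.930 TPM or less in F/F PBS. It entered the test through the Tat groups, in which it was high, so its call is a description. Csf3, the gene of granulocyte colony-stimulating factor, rose from 1.56 ± 0.243 to 363 ± 24.1 TPM and was at 50.9 ± 6.30 TPM in ΔMye Tat, 14.0% of F/F Tat. It was the one of the 11 that was called lower between the genotypes (log2 difference -2.84, standard error 0.09, adjusted p = 1.57e-14, limma), as were 0.316% of all tested genes. Il6 joined it with scaling. At the adjusted p alone 7 were lower and 1 higher, beside 8.87% and 38.8% of all tested genes. The list median was -0.66 against 0.22 over all tested genes. Cxcl1, the gene of a neutrophil chemokine, differed by 0.15 between the genotypes (adjusted p = 0.0945, limma). Many of these genes also respond to NF-κB without IL-17.

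The cytokines that induce IL-17 and IL-22 in lymphocytes were 6, all tested, and 5 were called higher with Tat, beside 5.21% of all tested genes. These were Il6, Il1b (7.36), Il1a (6.30), Il12b (5.24) and Il23a (4.50), and the list median was 5.77. Il23a, at 0.379 TPM or less in F/F PBS, entered the test through the Tat groups, in which it was high. Its call is therefore a description. Il12b and Il23a encode the subunits of IL-23. Il12b was higher still in ΔMye Tat, at 638 ± 55.9 TPM against 391 ± 17.6 TPM in F/F Tat (log2 difference 0.70, adjusted p = 8.25e-09, limma), whereas Il6 fell by 1.45, Il1a by 0.56 and Il1b by 0.17. Il23a was at 0.156 ± 0.146, 4.91 ± 0.994 and 3.04 ± 0.427 TPM in F/F PBS, F/F Tat and ΔMye Tat, and the genotypes overlapped (log2 difference -0.66, adjusted p = 0.0938, limma). Of 8 genes known as IL-22 targets in epithelium 4 were tested. Lcn2 and Socs3 were called higher with Tat, beside the same 5.21%, and the list median was 2.02. Lcn2 fell by 0.36 between the genotypes (adjusted p = 4.51e-09, limma). It was the one of the 4 that passed the adjusted p, where 8.87% of all tested genes were lower.

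**Figure D3:**
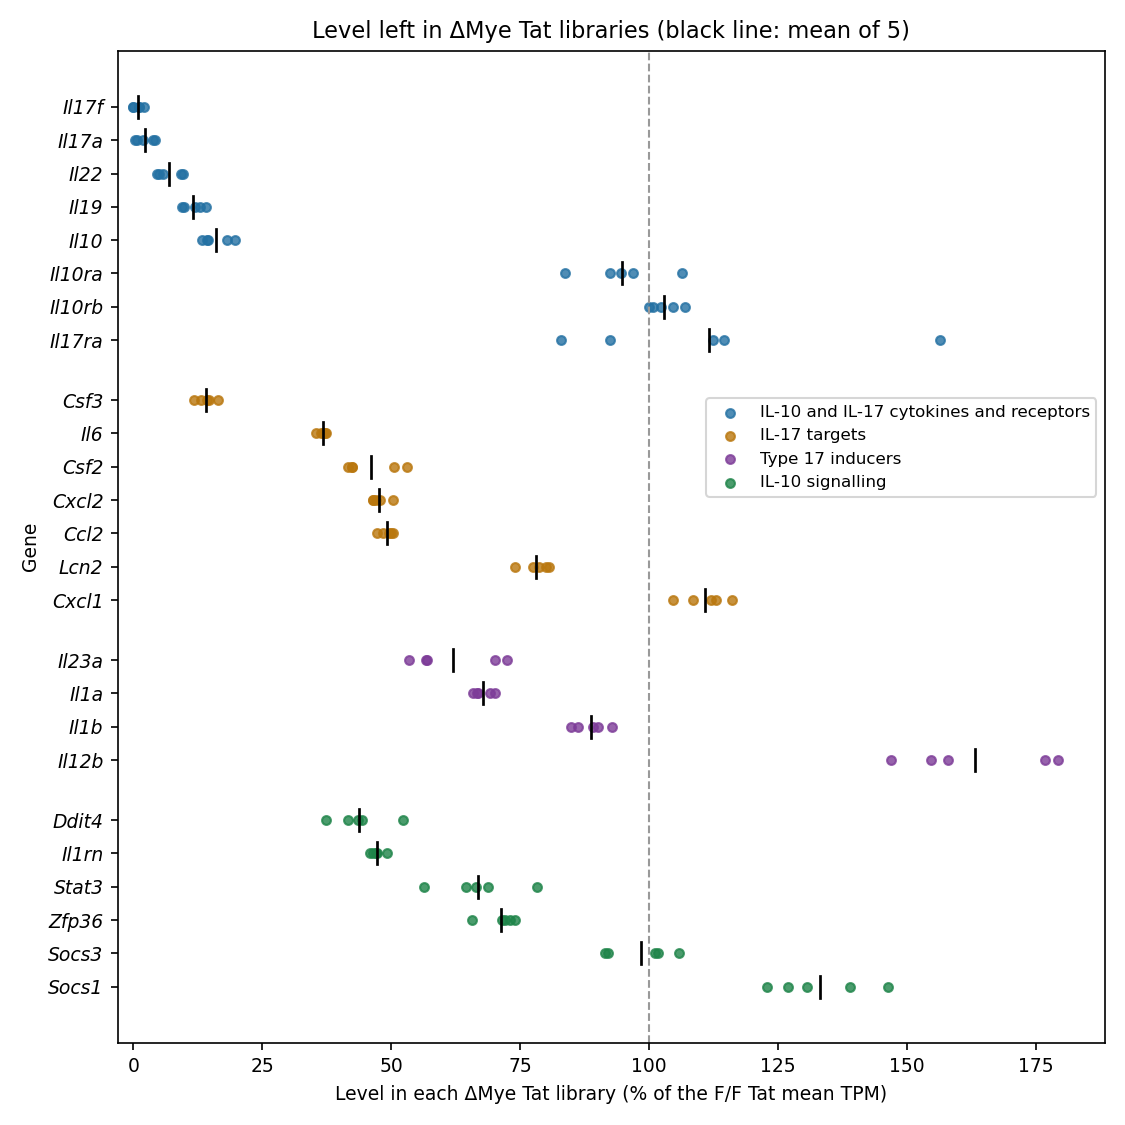
Level in each of the 5 ΔMye Tat libraries as a percentage of the F/F Tat mean TPM (horizontal axis) for the 8 genes (blue) and for genes called higher with Tat in the lists of IL-17 targets (orange), inducers of type 17 cytokines (purple) and IL-10 signalling (green); points are libraries, the black line is their mean and the dashed line marks 100%. The means of the 5 cytokines lie at 0.867% to 16.0%, that of Csf3 at 14.0%, those of Il10ra and Il10rb at 94.8% and 103%, and that of Il12b at 163%.

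The genes whose profile over the 17 libraries was most like that of each member were found by the root mean square difference of levels, each as a percentage of the highest library of the gene. Il17a and Il17f were closest to each other, at 6.93 percentage points, followed by Il22 (8.70) for Il17a and by Armcx4 (8.92) for Il17f. Il22 was closest to Csf3 (4.14) and Lta (5.94), Lta being the gene of lymphotoxin alpha. Il10 was closest to Csf3 (5.57), Ifit1bl1 (5.65) and Il19 (5.65), and Il19 to Ifit1bl1 (5.38) and Il10 (5.65). Csf3 was among the 4 nearest genes of each of the 5 cytokines. The nearest genes were Plpp3, Reps1 and Vps54 for Il10ra (3.03 to 3.40 percentage points), Atp6v1b2, Glyr1 and Rexo4 for Il10rb (3.21 to 3.58) and Nfat5, Ppp1r16b and Olfr46 for Il17ra (7.76 to 8.52). The libraries of a group weigh together in this measure, and it is given as a description.

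Il17a and Il17f lie 42.6 kb apart, and the other nearest listed genes differed from both in pattern. Beyond Il17f by 12.4 kb lies Mcm3, a replication gene, which was at 19.1 ± 0.485, 6.37 ± 0.324 and 7.54 ± 0.581 TPM in F/F PBS, F/F Tat and ΔMye Tat, and beyond Il17a lies Pkhd1, at 0 in F/F PBS and F/F Tat. Il10 and Il19 are 79.7 kb apart. Mapkapk2, 28.7 kb from Il10, was at 198 ± 9.14, 352 ± 8.52 and 464 ± 26.5 TPM, highest in the group in which Il10 was below its F/F Tat level. Il20, 21.2 kb from Il19, was near 0 in each group. On the sides of Il22, Mdm1 was at 2.18 ± 0.275, 0.550 ± 0.207 and 0.650 ± 0.375 TPM, and Gm32717 was near 0.

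The label was checked against marker genes. The sum of 8 macrophage markers, among them Adgre1, Cd68 and Mertk, was 3422 to 4242 TPM over the 17 libraries, and each had a mean above 1 TPM in each group. Ikbkb, the gene of IKKβ, ranged from 24.5 to 30.1 TPM with PBS and, with Tat, from 21.6 to 25.4 TPM in F/F and from 12.8 to 19.9 TPM in ΔMye PMs (log2 difference between the genotypes -0.51, adjusted p = 4.51e-05, limma). The deletion removes part of the gene, which limits this check. Lyz2, the gene that carries Cre, differed by -0.69 between the genotypes (adjusted p = 1.32e-13, limma).

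Transcripts of lymphocyte marker genes were also present and moved with the groups. The 14 markers of T cells and innate lymphoid cells summed to 163 to 183, 162 to 175 and 175 to 187 TPM in F/F PBS, F/F Tat and ΔMye Tat, most of it Il7r, at means of 149 to 152 TPM. Without Il7r, an exclusion chosen after its values were seen, the sum was 13.0 to 21.8, 18.7 to 20.6 and 26.7 to 31.7 TPM, and the ΔMye Tat libraries lay above both other groups. Of the 12 tested, 7 were higher and 1 lower between the genotypes at the adjusted p alone, beside 38.8% and 8.87% of all tested genes, and the list median was 0.92 against 0.22. The lower one was Il2ra, a chain of the interleukin-2 receptor, at 0.461 ± 0.153, 6.35 ± 0.548 and 3.40 ± 0.255 TPM in F/F PBS, F/F Tat and ΔMye Tat (log2 difference between the genotypes -0.88, adjusted p = 6.35e-05, limma). Cd3g, a chain of the T cell receptor complex, was at 0.515 ± 0.247 TPM in F/F Tat and at 1.98 ± 0.260 TPM in ΔMye Tat (log2 difference 1.86). Cd3e was 1.20 higher on the log2 scale, and Thy1 was 1.08 higher (adjusted p = 5.71e-05, limma). Cd3g and Cd3e, both among the 7 higher, reached 1 TPM in no F/F Tat library (highest 0.896 and 0.918 TPM). They passed the filter on low values through F/F PBS and ΔMye Tat, and no test is given for them. Cd3d, also tested, was at 0.610 TPM or less in F/F Tat. Zap70 was at 0.500 TPM or less in F/F PBS, had a median of 0.673 TPM in F/F Tat and was at 1.32 TPM or more in ΔMye Tat. Genes of this list thus entered the test through groups in which they were high, and nothing is read from its count or median. The ΔMye Tat libraries overlapped those of F/F PBS for Cd3e, Cd3g and Thy1. With Tat in F/F PMs Cd3g differed by -1.43 and Cd3e by -0.82, beside a median of -0.65 over all tested genes. With scaling these differences were -0.88 and -0.25.

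The 8 markers of type 17 lymphocytes summed to 9.24 to 11.6, 12.2 to 16.2 and 12.0 to 17.8 TPM in F/F PBS, F/F Tat and ΔMye Tat, and the largest part was Ahr, at 3.93 ± 0.260, 9.73 ± 0.948 and 10.4 ± 1.70 TPM. Other markers of this list were lower with Tat than with PBS in F/F PMs, Rora at 1.34 against 2.31 TPM (adjusted p = 0.000682, limma) and Il1r1 at 0.719 against 1.31 TPM. Rora did not pass with scaling (adjusted p = 0.355, limma), and Il1r1 differed by -0.20 with it on the log2 scale. Il1r1 reached 1 TPM in no F/F Tat library (highest 0.917 TPM), and no test is given for it. Sox13, which was not tested, was at 0.0471 against 0.188 TPM. None of the 8 was at 0 in all libraries of a group. Il23r, the specific chain of the IL-23 receptor, was at 0 to 0.0964, 0.183 to 0.559 and 0.111 to 0.249 TPM in F/F PBS, F/F Tat and ΔMye Tat, with overlap between the genotypes. Il23r was below the filter and was not tested. The part of lymphocytes in the levels of Il17a, Il17f and Il22 was not tested.

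**Figure D4:**
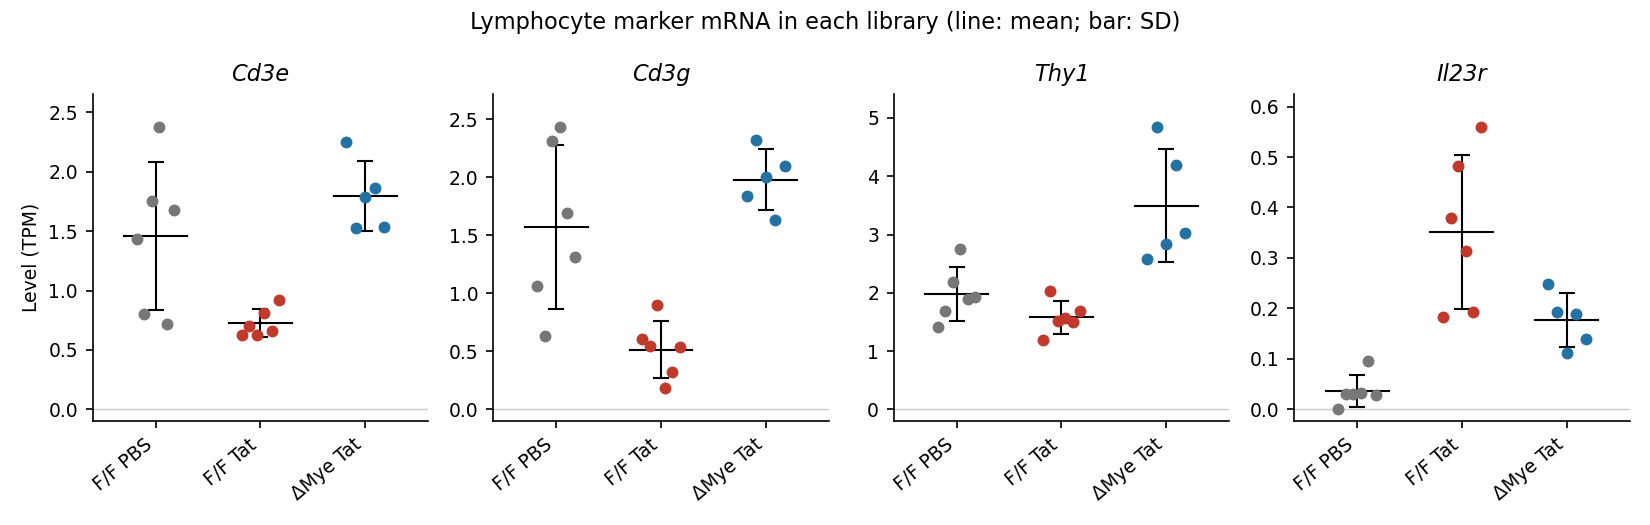
Level in TPM (vertical axes, each with its own range) of the T cell markers Cd3e, Cd3g and Thy1 and of the type 17 gene Il23r in each library of F/F PBS (grey, n = 6), F/F Tat (red, n = 6) and ΔMye Tat (blue, n = 5); points are libraries, the line is the mean and the bar the SD. The ΔMye Tat libraries lie above those of F/F Tat for Cd3e, Cd3g and Thy1, and they overlap them for Il23r.

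Markers of other cells moved as well. The sum of 8 NK cell markers was 6.25 to 11.6, 36.9 to 41.9 and 22.5 to 30.1 TPM in F/F PBS, F/F Tat and ΔMye Tat, without overlap. The 6 dendritic cell markers summed to 7.04 to 15.8, 41.4 to 46.2 and 22.4 to 27.0 TPM in the same order of groups. Each of these sums was in large part 1 gene in the Tat groups. Klrk1 of the NK cell list was at 1.54 ± 0.200, 30.2 ± 1.60 and 15.1 ± 1.87 TPM, and Ccr7 of the dendritic cell list had means of 9.01, 42.3 and 23.4 TPM. The other markers of both lists went both ways with Tat in F/F PMs. Lower means with Tat than with PBS were those of Klrb1c (0.179 against 0.860 TPM), Ncr1 (0.478 against 0.800 TPM) and Eomes (0.242 against 0.254 TPM). In the dendritic cell list they were those of Flt3 (0.220 against 0.526 TPM), Cd209a (0.0439 against 0.400 TPM) and Clec9a (0.0234 against 0.215 TPM). Higher means were those of Prf1 (1.67 against 0.510 TPM), Gzma (4.21 against 3.63 TPM) and Klrc1 (0.595 against 0.511 TPM). Zbtb46 (0.975 against 0.467 TPM) and Xcr1 (0.243 against 0.0702 TPM) of the dendritic cell list were also higher. Tbx21 of the NK cell list was at 0.364, 1.48 and 2.33 TPM in F/F PBS, F/F Tat and ΔMye Tat. The 7 mast cell markers summed to 33.9 to 46.5, 32.6 to 44.0 and 25.1 to 31.7 TPM, and the 7 B cell markers to 49.3 to 65.0, 24.1 to 28.1 and 23.8 to 36.5 TPM. The 10 neutrophil markers summed to 108 to 122, 193 to 210 and 228 to 250 TPM, with Ngp and Elane at 0 in all libraries. Most of this sum was Csf3r, at 54.9, 128 and 145 TPM, and S100a8, at 53.8, 68.6 and 91.4 TPM. Retnlg was lower with Tat, at 5.07, 0.671 and 0.298 TPM (log2 difference -3.13 in F/F PMs). It passed the filter on low values through F/F PBS, where its lowest library was at 3.28 TPM. Its median in F/F Tat was 0.772 TPM, and no test is given for it. Ltf and S100a9 had means of 1.15 TPM or less in each group. The 5 eosinophil markers stayed at 2.64 TPM or less and the 6 mesothelial cell markers at 6.46 TPM or less, in sum, in each library. The part of these cells in the cytokine levels was not tested.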

How the data were processed

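The deposited values are TPM by gene symbol, which the authors made for each library with Salmon and the GRCm38 annotation of Ensembl. No further scaling of the TPM between libraries is stated. Their own comparison used edgeR with TMM normalization, which needs counts and was not repeated. The submitters' processing notes name mm10. Listed TPM summed to 889318 to 903576 per library. The members and lists were chosen with earlier results of these data known. An item of the lists is not reported here.

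Groups came from the sample labels. Of 21683 rows (2 repeat a symbol), 10451 reached 1 TPM in 5 or more libraries. Their log2(TPM + 0.1) values were fitted with limma 3.58.1 (R 4.3.3, trended eBayes), 3 groups together, leaving 14 residual degrees of freedom. The procedure was tested on simulated data. Named genes were the 8 members, Ikbkb and Lyz2, all listed family ligands and receptor chains, up to 4 called genes per list, direction and comparison, the most alike genes and the neighbouring genes; other list genes named had been chosen after their values were seen. Alternatives were a pseudocount of 1, no filter, median-ratio scaling, only the compared groups in the fit, each library left out, and, added after seeing the data, the adjusted p alone and a T cell list without Il7r. Python 3.11.15 with pandas 2.3.3 and matplotlib 3.10.9 made the descriptions. Sequences were from RefSeq (GRCm38.p6) and coordinates from GENCODE M21.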

Additional observations from a re-analysis of the deposited data

How the results depend on the processing

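No paired analysis was made, since the labels do not say which libraries, if any, came from the same animals. Of the counts of called genes, those higher and lower with Tat in F/F PMs were 545 and 2031, those higher and lower in ΔMye Tat against F/F Tat 46 and 33, and those higher and lower in ΔMye Tat against F/F PBS 458 and 1165. With a pseudocount of 1, 1197 were lower with Tat, 10 higher and 20 lower between the genotypes and 601 lower in ΔMye Tat against F/F PBS. With median-ratio scaling, 889 were higher and 1020 lower with Tat, 27 higher and 63 lower between the genotypes and 655 lower in ΔMye Tat against F/F PBS. With only the compared groups in the fit, 30 were higher between the genotypes. With the adjusted p alone, an alternative added after the data were seen, the counts were 1774 and 7068, 4055 and 927, and 1834 and 6143. With each library left out in turn the counts ranged from 533 to 556 and from 1941 to 2039 with Tat, from 36 to 48 and from 28 to 38 between the genotypes, and from 447 to 462 and from 1113 to 1192 in ΔMye Tat against F/F PBS. The cause of these changes was not tested. Of 2646 counts over the gene lists under the alternatives, 58 moved by over 1.5 times. Il17a, Il17f and Il22 were not tested in a fit of ΔMye Tat and F/F PBS alone. The unknown depth limits statements about levels near 0.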
